A study of Mus musculus with 6 samples.

Results

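The genes of sphingosine-1-phosphate (S1P) signalling described here were 9 genes fixed by name: the receptors *S1pr1*, *S1pr2* and *S1pr3*, the kinases *Sphk1* and *Sphk2*, the exporter *Spns2*, and the enzymes *Plpp3*, *Sgpp1* and *Sgpl1*, which remove S1P. They were matched by Ensembl identifier among 24080 genes of the RNA sequencing table. A row was matched for 8 of the 9, and *S1pr3* was not analysed here. Total RNA had been sequenced from 2 mouse cell lines, with 3 libraries of each. VEC-positive cells are endothelial cells (ECs) derived from embryonic stem cells of the mouse that are homozygous null for VEC (vascular endothelial cadherin), into which wild-type *VEC* was brought back with a retrovirus. VEC-null cells are the same null ECs without the transferred gene. Both groups thus share the null background, and each stands for a single line, so that the tests measure the spread between libraries and do not separate VEC from other differences between the lines.

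S1P is a lipid signal made inside the cell, when a sphingosine kinase phosphorylates sphingosine. ECs release it through the transporter SPNS2, and it then acts on G protein-coupled receptors at the surface of the same or a neighbouring cell. In endothelium, S1PR1 signals through Gi and Rac to tighten junctions and restrain sprouting, whereas S1PR2 is known for opposing these effects. The signal ends when a phosphatase returns S1P to sphingosine, at the cell surface (PLPP3) or in the endoplasmic reticulum (SGPP1), or when the lyase SGPL1 cleaves it for good.

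The values deposited are gene counts divided by a size factor per library, called normalized counts here, and whole reads recovered from them summed to between 6036155 and 14136376 per library. *Cdh5*, the gene of VEC, ran against the labels, with 794.3, 739.4 and 749.7 normalized counts in the libraries labelled VEC-positive and 1334, 1439 and 1689 in those labelled VEC-null, so that directions below are by label. *Cldn5*, the tight junction gene that the study treats as induced by VEC, ran with the labels, at 429.2, 512.4 and 434.1 normalized counts in the libraries labelled VEC-positive and 9.18, 5.51 and 4.43 in those labelled VEC-null. Endothelial markers summed to between 71305 and 73105 normalized counts in the libraries labelled VEC-positive and between 49503 and 52118 in those labelled VEC-null. Of 12, 9 were higher, 1 lower and 2 did not pass, where 20.9% of all tested genes were higher and 16.4% lower. All genes together summed to between 11195530 and 11917512 normalized counts in the libraries labelled VEC-positive and between 9190363 and 9386494 in those labelled VEC-null. With libraries scaled to equal totals, 7 markers were higher and 3 lower, where 11.2% of all tested genes were higher and 35.3% lower. Markers of mural cells and fibroblasts, of which 10 of 12 had a row, summed to between 292.2 and 350.2 against between 91.3 and 221.9. Of the 6 tested, 2 were higher (*Pdgfrb* and *Notch3*) and 4 did not pass, against 20.9% of all tested genes higher. *Pdgfrb* was at 95.6, 117.9 and 102.5 normalized counts in the libraries labelled VEC-positive and 1.53, 0 and 1.77 in those labelled VEC-null. Of 6 markers each of pluripotent and of blood cells, 2 and 4 had a row, and *Itgam* was the only blood marker that passed the filter. *Itgam* was at 155.1, 99.4 and 145.3 normalized counts in the libraries labelled VEC-positive and 405.5, 389.0 and 83.3 in those labelled VEC-null. It made up most of the blood sum, and its change did not pass. *Ptprc* and *Spi1*, which define blood cells, were at 0 to 3.23 normalized counts, and *Laptm5* had 1, 0 and 0 reads in the libraries labelled VEC-positive and 8, 14 and 11 in those labelled VEC-null. The pluripotent sum was between 0 and 11.3 against between 2.66 and 9.18, and the blood sum between 99.4 and 156.3 against between 93.1 and 420.8. Of 4 lymphatic endothelial markers, 3 had a row and 2 were lower, with sums between 1951 and 2276 against between 2853 and 3060. The counts of VEC-null 3 were unlike those of VEC-null 1 and 2 (chi-square divided by the number of genes, 45.1 and 43.8), which differed less from each other (6.06), as did pairs labelled VEC-positive (10.8 to 17.9). Transcripts of the mitochondrial genome took 17.97% to 24.18% of reads in libraries labelled VEC-positive and 9.62% to 14.9% in those labelled VEC-null. The part of these differences in the results below was not tested.

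In the libraries labelled VEC-positive, transcripts of the exporter *Spns2* and of the phosphatases *Plpp3* and *Sgpp1* were higher, transcripts of the lyase *Sgpl1* were lower, and no change of *S1pr1*, *S1pr2* or *Sphk2* passed the test. Of the 9 genes, 7 reached 10 normalized counts in 3 or more libraries and were tested, *Sphk1* was below that filter, and *S1pr3* was not analysed. Of these 7, 3 were higher, where 20.9% of the 14032 tested genes were, and 1 was lower, where 16.4% of tested genes were, by limma with a mean-variance trend on log2(normalized count + 1) and Benjamini-Hochberg adjustment over all tested genes (threshold 0.05, two-sided). In either direction, 4 of the 7 passed, where 37.3% of tested genes did, and 3 of these (*Spns2*, *Plpp3* and *Sgpl1*) also changed at least 2-fold, where 13.9% of tested genes did. The libraries of the 2 labels did not overlap for 5 of the 7, where they did not overlap for 50% of all tested genes. The median log2 fold change was 0.19 over the 7 and -0.01 over all tested genes. In such bulk RNA, a change in the number of cells that make a transcript and a change in its amount per cell cannot be told apart.

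**Figure D1:**
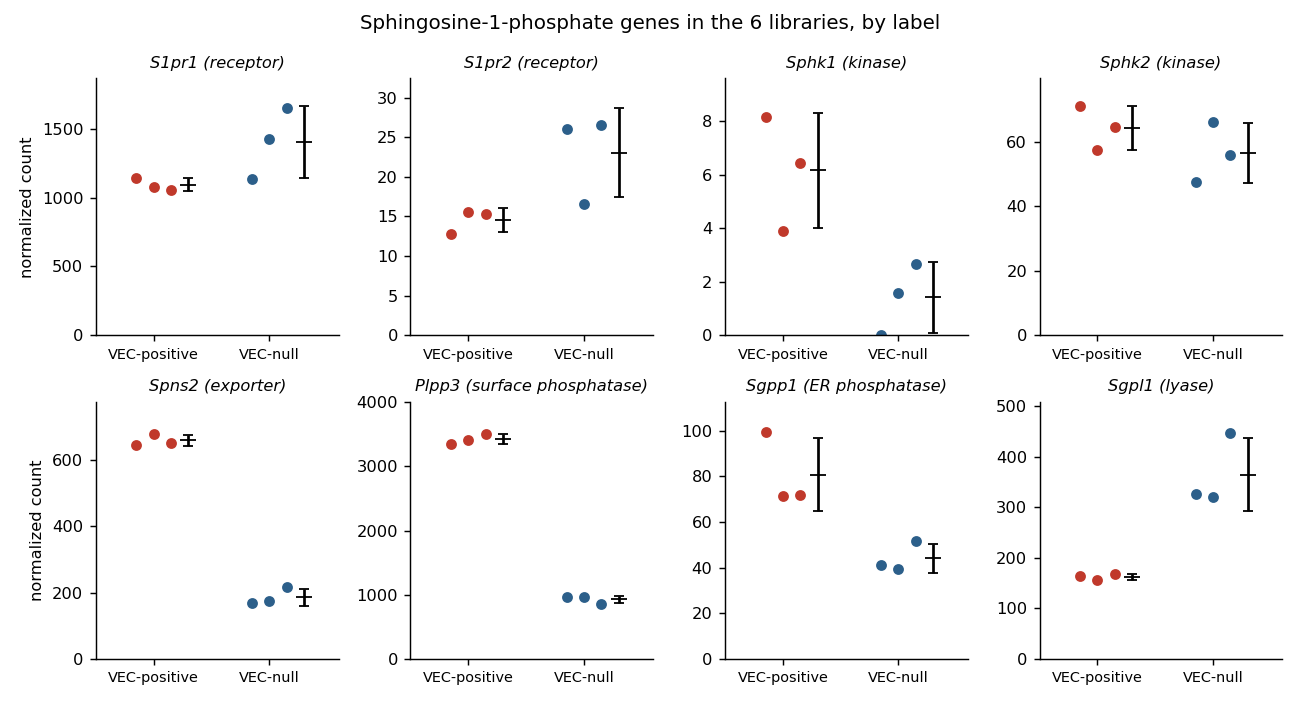
Normalized counts (vertical axes, linear and starting at 0, scaled per gene) of the 8 genes with a row in each library, labelled VEC-positive (red, left) and VEC-null (blue, right); each point is a library, and the bar with whiskers is the mean ± SD of 3. *Spns2*, *Plpp3* and *Sgpp1* lie higher and *Sgpl1* lower in the libraries labelled VEC-positive without overlap, whereas the points of *S1pr1* and *Sphk2* overlap.

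*S1pr1* (ENSMUSG00000045092, chromosome 3 of mm10 from 115710433 to 115715072), the main S1P receptor of endothelium, was abundant in both lines. The libraries labelled VEC-positive held 1145, 1075 and 1056 normalized counts of *S1pr1*, against 1134, 1428 and 1654 in those labelled VEC-null. The 3 libraries labelled VEC-positive lay close together, VEC-null 1 fell among them, and VEC-null 2 and 3 were higher. With fold changes taken as labelled VEC-positive divided by VEC-null, the log2 value was -0.35 (SE 0.13, 95% interval -0.65 to -0.04, limma adjusted p = 0.0716) and did not pass. The call turned on the processing. *S1pr1* was lower with edgeR (adjusted p = 0.0430) or DESeq2 (0.0411) on recovered reads, and by limma with upper quartile scaling (0.0266) or equal totals (0.00451). It was also lower without VEC-null 1 (-0.49, limma adjusted p = 0.00761), while without VEC-null 3 the log2 value was -0.22 (0.0908) and did not pass.

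Among 8395 tested genes with a mean of at least 100 normalized counts, the 3 whose log2 values followed *S1pr1* most closely over the 6 libraries were *Uprt*, *Zc3h6* and *Mvb12b*, with Pearson correlations of 0.992, 0.990 and 0.990. A correlation over 0.95 was reached by 61 genes. As with *S1pr1*, the level of *Uprt* was similar in 4 libraries, with 255.4, 232.8 and 224.3 normalized counts in those labelled VEC-positive and 255.5 in VEC-null 1, and higher in VEC-null 2 and 3, with 307.1 and 371.5. The 6 libraries share the 2 labels and the size factors, and these correlations are given as a description.

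*S1pr2* (ENSMUSG00000043895, chromosome 9 from 20962361 to 20976781) was near the limit of the filter. It had 12.8, 15.6 and 15.3 normalized counts in the libraries labelled VEC-positive and 26.0, 16.5 and 26.6 in those labelled VEC-null, from 46 and 68 reads in all. Every library labelled VEC-positive was below every library labelled VEC-null, but VEC-null 2 was close to them. The log2 fold change was -0.60 (SE 0.30, 95% interval -1.30 to 0.10, limma adjusted p = 0.158) and did not pass, except when libraries were brought to equal totals (-0.90, limma adjusted p = 0.0396). Of the other S1P receptors, *S1pr3* was not analysed, and *S1pr4* and *S1pr5* were below the filter. *S1pr4*, known mainly from blood cells, had 5.83, 5.84 and 3.23 normalized counts in the libraries labelled VEC-positive and 6.12, 2.36 and 3.55 in those labelled VEC-null, and *S1pr5* had 0 reads in 4 libraries and 1 read each in VEC-null 2 and 3.

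The kinases that make S1P were scarce. *Sphk2* (ENSMUSG00000057342, chromosome 7 from 45709467 to 45718002), whose enzyme is found in the nucleus, mitochondria and endoplasmic reticulum, had 71.1, 57.5 and 64.6 normalized counts in the libraries labelled VEC-positive and 47.4, 66.2 and 55.9 in those labelled VEC-null. The 2 groups overlapped, and the log2 fold change was 0.19 (SE 0.19, 95% interval -0.25 to 0.64, limma adjusted p = 0.466), or -0.11 after scaling to equal totals. Its value is uncertain, since 539 and 373 of its 4159 exon bases also lie in exons of *Dbp* and of *Rpl18* on the other strand, and the sources used here do not say whether reads were counted by strand. *Sphk1* (ENSMUSG00000061878, chromosome 11 from 116530925 to 116536674), a cytosolic kinase that growth factors move to the plasma membrane, had 7, 4 and 8 reads in the libraries labelled VEC-positive and 0, 2 and 3 in those labelled VEC-null. Each library labelled VEC-positive held more *Sphk1* than each labelled VEC-null. The ratio over the groups, corrected for depth, was 3.71 with a 95% counting interval of 1.34 to 12.7, which covers counting error only, and *Sphk1* did not pass where it could be fitted (adjusted p = 0.0791 from limma without a filter and 0.254 from DESeq2).

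*Spns2* (ENSMUSG00000040447, chromosome 11 from 72451638 to 72489904), the exporter through which ECs supply S1P to blood and lymph in the mouse, was higher in the libraries labelled VEC-positive. Libraries labelled VEC-positive held 646.2, 678.0 and 652.0 normalized counts of *Spns2*, against 168.3, 173.3 and 215.4 in those labelled VEC-null. The lowest library labelled VEC-positive was thus well above the highest labelled VEC-null, VEC-null 3. The log2 fold change was 1.83 (SE 0.11, 95% interval 1.57 to 2.09, limma adjusted p = 1.49e-05), or 3.56-fold. It was exceeded by 5.49% of tested genes in size, and 2.89% were called higher by at least as much. Of its 4083 exon bases, 131 are shared with *Mybbp1a* on the other strand. *Mfsd2b*, the S1P exporter of red blood cells and platelets, was below the filter, with 8, 7 and 8 reads in the libraries labelled VEC-positive and 1, 5 and 5 in those labelled VEC-null.

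*Plpp3* (ENSMUSG00000028517, chromosome 4 from 105157347 to 105232764) encodes LPP3, a lipid phosphatase that faces the outside of the cell and dephosphorylates S1P and lysophosphatidic acid there. It was the most abundant of the genes in the libraries labelled VEC-positive and had the largest log2 fold change of the 7 tested, although without VEC-null 3 *Spns2* was at 1.94 and *Plpp3* at 1.83. The libraries labelled VEC-positive held 3354, 3412 and 3506 normalized counts of *Plpp3*, against 960.9, 959.2 and 856.5 in those labelled VEC-null. Replicates agreed closely within both labels, and VEC-null 3 was the lowest library. The log2 fold change was 1.89 (SE 0.07, 95% interval 1.72 to 2.06, limma adjusted p = 1.41e-06), or 3.70-fold, and 5.20% of tested genes changed more. By the same measure as for *S1pr1*, the genes that followed *Plpp3* most closely were *Casp1*, *Arhgef10l* and *Rflnb*, each with a correlation of 0.999, and 1057 genes exceeded 0.95. *Casp1* and *Arhgef10l* changed far more than *Plpp3*, by 5.28 and 5.38 on the log2 scale, and *Rflnb* changed by 1.21. In libraries labelled VEC-null, *Casp1* and *Arhgef10l* had low means of 9.38 and 6.13 normalized counts. As for *S1pr1*, these correlations are given as a description.

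*Sgpp1* (ENSMUSG00000021054, chromosome 12 from 75714249 to 75735729), the S1P phosphatase of the endoplasmic reticulum, was also higher, at a far lower level. Libraries labelled VEC-positive held 99.1, 71.1 and 71.8 normalized counts of *Sgpp1*, against 41.3, 39.4 and 51.4 in those labelled VEC-null. No library labelled VEC-positive was as low as any labelled VEC-null, and VEC-positive 1 stood above the other 2. The log2 fold change was 0.85 (SE 0.21, 95% interval 0.37 to 1.33, limma adjusted p = 0.0140), or 1.80-fold. The call was lost without VEC-positive 1 (0.70, limma adjusted p = 0.0630) and after scaling to equal totals (0.55, limma adjusted p = 0.0680).

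The 250 bases before the start sites of *Plpp3* and *Sgpp1*, the phosphatase genes that were both higher, are shown because the study is about FoxO1 and about β-catenin with its partner TCF, factors that act at promoters. They are from RefSeq (GRCm38.p6) and are given 5′ to 3′ on the strand of the gene, with capitals marking any match to GTAAACA (FOXO), CTTTGA (TCF) or CACCC (Krüppel-like factors) on either strand. *Plpp3* lies at chr4:105157097-105157346 on the plus strand and *Sgpp1* at chr12:75735730-75735979 on the minus strand.
Plpp3: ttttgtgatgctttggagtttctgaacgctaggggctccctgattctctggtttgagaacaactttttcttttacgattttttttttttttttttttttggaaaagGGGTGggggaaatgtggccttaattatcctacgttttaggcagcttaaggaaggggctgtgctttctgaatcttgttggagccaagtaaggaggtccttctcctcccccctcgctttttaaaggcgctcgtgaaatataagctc
Sgpp1: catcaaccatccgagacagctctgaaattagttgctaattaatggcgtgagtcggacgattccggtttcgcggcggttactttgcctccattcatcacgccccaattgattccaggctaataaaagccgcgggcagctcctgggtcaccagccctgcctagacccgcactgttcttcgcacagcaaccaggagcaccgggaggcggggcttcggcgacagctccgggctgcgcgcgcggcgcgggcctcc
The window of *Plpp3* held 1 match, to CACCC read on the other strand and 144 to 140 bases before the start, and that of *Sgpp1* held none. Of 32851 RefSeq promoter windows of this length, 52.0% held CACCC, 13.8% CTTTGA and 3.17% GTAAACA. The windows of *Spns2* and *Sgpl1* held none of the 3 motifs, and that of *Spns2* lies at an internal RefSeq start (72475027) and not at the first annotated exon. For *VE-PTP* and *vWf*, the study searched a far longer stretch around the start for paired sites of its factors. An empty window of 250 bases thus does not show that a gene lacks such sites. The windows also differed in base composition, with a G and C content of 42.4% for *Plpp3* and 61.2% for *Sgpp1*.

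*Sgpl1* (ENSMUSG00000020097, chromosome 10 from 61098642 to 61147703), which encodes the lyase that degrades S1P irreversibly, was the 1 gene of the 7 that was lower. The libraries labelled VEC-positive held 164.5, 155.9 and 167.8 normalized counts of *Sgpl1*, against 325.9, 320.5 and 447.7 in those labelled VEC-null. Every library labelled VEC-positive was far below every library labelled VEC-null, among which VEC-null 3 was the highest. The log2 fold change was -1.14 (SE 0.14, 95% interval -1.47 to -0.81, limma adjusted p = 0.000528), and 13.1% of tested genes changed more. Without VEC-null 3 it was -0.99 (limma adjusted p = 6.52e-05).

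The order of the levels differed between the labels. Per kilobase of merged exons, the order in the libraries labelled VEC-positive was *Plpp3*, *S1pr1*, *Spns2*, *Sgpl1*, *Sphk2*, *Sgpp1*, *S1pr2* and *Sphk1*, and in those labelled VEC-null *S1pr1*, *Plpp3*, *Sgpl1*, *Spns2*, *Sphk2*, *Sgpp1*, *S1pr2* and *Sphk1*. *Plpp3* was at 1084 ± 24.3 normalized counts per kilobase in the libraries labelled VEC-positive and 293.0 ± 18.9 in those labelled VEC-null (SD, n = 3 each), while *S1pr1* was at 358.5 ± 15.5 and 461.3 ± 85.6 (SD, n = 3 each). The surface phosphatase thus exceeded the receptor in each library labelled VEC-positive, with ratios of 2.82, 3.06 and 3.20, and was below it in each labelled VEC-null, with ratios of 0.82, 0.65 and 0.50. The ratio of the exporter *Spns2* to the lyase *Sgpl1* was 5.91, 6.54 and 5.84 in the libraries labelled VEC-positive and 0.78, 0.81 and 0.72 in those labelled VEC-null, although in libraries labelled VEC-null the ranges of the 2 genes overlapped. Neighbours in the order whose ranges also overlapped were *Sphk2* and *Sgpp1*, and *S1pr2* and *Sphk1*, both in the libraries labelled VEC-positive. Both of these pairs changed places there when the longest protein-coding transcript was taken as the length, with *Sgpp1* at 21.4 to 29.8 and *Sphk2* at 16.2 to 20.1 normalized counts per kilobase. These ratios compare RNA levels and give no activity or amount of protein.

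**Figure D2:**
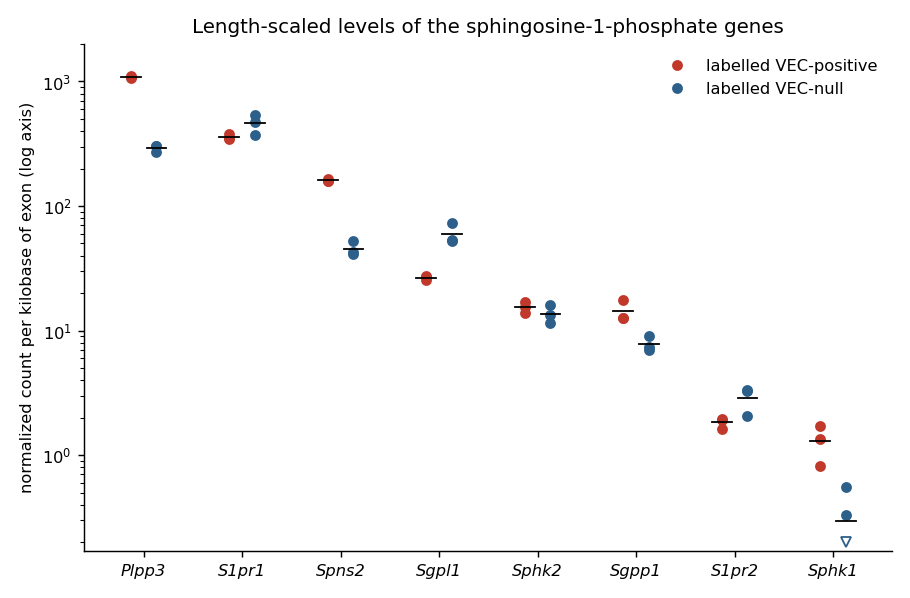
Normalized counts per kilobase of merged exons (vertical log axis) of the 8 genes, ordered by their mean in the libraries labelled VEC-positive (red, left of each pair) beside those labelled VEC-null (blue, right); points are libraries, bars are means of 3, and the open triangle marks VEC-null 1 with 0 reads of *Sphk1*. *Plpp3* lies above *S1pr1* in red and below it in blue.

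A list of 10 other genes of S1P, which holds receptors, carriers, lipid phosphatases, the dehydrogenase *Aldh3a2* and the kinase partners *Cib1* and *Cib2*, had 9 with a row and 4 tested. Of these 4, 1 was higher and 3 did not pass, where 20.9% of all tested genes were higher and 16.4% lower. *Plpp1*, a phosphatase of the same family as *Plpp3* that also acts on lysophosphatidic acid, had 641.5, 679.9 and 680.3 normalized counts in the libraries labelled VEC-positive and 284.6, 285.9 and 369.7 in those labelled VEC-null, which differed by 1.10 on the log2 scale (SE 0.12, limma adjusted p = 0.000221). Its libraries did not overlap, as for *Plpp3* and for 50% of all tested genes. *Plpp2* was at 117.3 ± 3.16 in the libraries labelled VEC-positive and 92.6 ± 17.1 in those labelled VEC-null (SD, n = 3 each) and passed only without VEC-null 3 (limma adjusted p = 0.0283). *Aldh3a2*, which oxidizes the aldehyde that the lyase releases, was at 207.4 ± 18.2 and 207.0 ± 37.7 (SD, n = 3 each) and did not pass. *Apom*, which carries S1P in plasma, had at most 1 read in any library.

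A list of 22 genes covered the making of ceramide and sphingosine, the precursors of S1P, and included the inhibitors *Ormdl1*, *Ormdl2* and *Ormdl3*. Of these 22, 16 were tested, and 7 were higher, 1 lower and 8 did not pass, with a median log2 fold change of 0.29. Over all tested genes 20.9% were higher and 16.4% lower. The alkaline ceramidases *Acer3* and *Acer2*, which release sphingosine from ceramide, were at 986.9 ± 37.2 and 629.3 ± 25.9 normalized counts in the libraries labelled VEC-positive and at 432.4 ± 54.3 and 298.0 ± 33.7 in those labelled VEC-null (SD, n = 3 each), with log2 fold changes of 1.20 (SE 0.10) and 1.08 (SE 0.10). *Cers4*, a ceramide synthase, and *Degs1*, the desaturase of dihydroceramide, were higher by 0.85 (limma adjusted p = 0.000566) and by 0.58 (0.0334) on the log2 scale. The call of *Degs1* was lost without any 1 library other than VEC-null 3. *Ormdl1*, singled out after its value was seen as the only member that was lower, encodes an inhibitor of serine palmitoyltransferase, the enzyme that starts this pathway. It was at 18.6 ± 2.45 against 43.3 ± 3.44 (SD, n = 3 each), a log2 difference of -1.18 (limma adjusted p = 0.00476). *Asah1*, the acid ceramidase of lysosomes, and *Cers2* differed by 0.24 (limma adjusted p = 0.241) and 0.29 (0.0789) on the log2 scale and did not pass, although both passed without VEC-null 3. Without that library, 10 were higher and 1 lower, where 27.1% of all tested genes were higher and 23.9% lower. At equal totals 3 were higher and 1 lower, where 11.2% of all tested genes were higher and 35.3% lower.

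Of 15 genes of sphingomyelin and glycosphingolipid turnover, all were tested, and 3 were higher, 1 lower and 11 did not pass, against 20.9% higher and 16.4% lower over all tested genes, with a median log2 fold change of -0.03. *Sgms1*, the sphingomyelin synthase of the Golgi, was at 1147 ± 26.4 normalized counts in the libraries labelled VEC-positive and 433.5 ± 24.2 in those labelled VEC-null (SD, n = 3 each), a log2 fold change of 1.40 (SE 0.08, limma adjusted p = 7.72e-06). *Samd8*, a related enzyme that makes ceramide phosphoethanolamine, and *Smpd1*, the acid sphingomyelinase, had log2 fold changes of 0.82 and 0.66, and the call of *Smpd1* was lost at equal totals (limma adjusted p = 0.0554). *Gla*, a lysosomal galactosidase, was the member that was lower, at -0.89 on the log2 scale (limma adjusted p = 0.0146), and its call was lost without VEC-positive 3 (0.0571). *Psap*, the precursor of the saposins that help lysosomal hydrolases, and *Hexa* differed by -0.22 (limma adjusted p = 0.0584) and 0.20 (0.312) on the log2 scale and did not pass, although *Psap* passed under 6 of 18 alternatives and *Hexa* without VEC-null 3. Without VEC-null 3, 5 were higher and 2 lower (all tested genes, 27.1% and 23.9%), and with equal totals 2 were higher and 7 lower (all tested genes, 11.2% and 35.3%).

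Downstream of the receptors, all 22 listed G protein subunits and effectors were tested, and 14 were higher, 3 lower and 5 did not pass, against 20.9% higher and 16.4% lower over all tested genes, with a median log2 fold change of 0.40. *Plcb1*, a phospholipase C that Gq activates, had 1175, 1273 and 1167 normalized counts in the libraries labelled VEC-positive and 163.7, 195.3 and 204.8 in those labelled VEC-null, a log2 fold change of 2.68 (SE 0.10, limma adjusted p = 1.41e-06). *Tiam1*, an exchange factor that activates Rac, had a log2 fold change of 2.20. The study had itself listed *Tiam1* as induced by VEC, from its RNA sequencing and by quantitative PCR. *Arrb1*, an arrestin that takes receptors from the surface after activation, was at 10508 ± 429.3 and 3401 ± 307.8 (SD, n = 3 each). Libraries of these 3 genes, named for the size of their change, did not overlap between the labels, as for 50% of all tested genes. The 3 that were lower, named after their values were seen, were *Gnai1*, a subunit of Gi, at -1.03 on the log2 scale (limma adjusted p = 0.000192), the kinase *Akt1* at -0.53 (0.000538) and the other arrestin *Arrb2* at -0.30 (0.0465). The call of *Arrb2* was lost with DESeq2 (adjusted p = 0.155), without any 1 library (limma adjusted p = 0.0572 without VEC-null 3) and in 3 further alternatives. *Gnai2*, the most abundant Gi subunit by normalized count, was at 7046 ± 176.9 and 6560 ± 496.8 (SD, n = 3 each) and did not pass (limma adjusted p = 0.346), and neither did *Plcb3* (0.290). At equal totals 10 were higher and 6 lower, where 11.2% of all tested genes were higher and 35.3% lower.

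**Figure D3:**
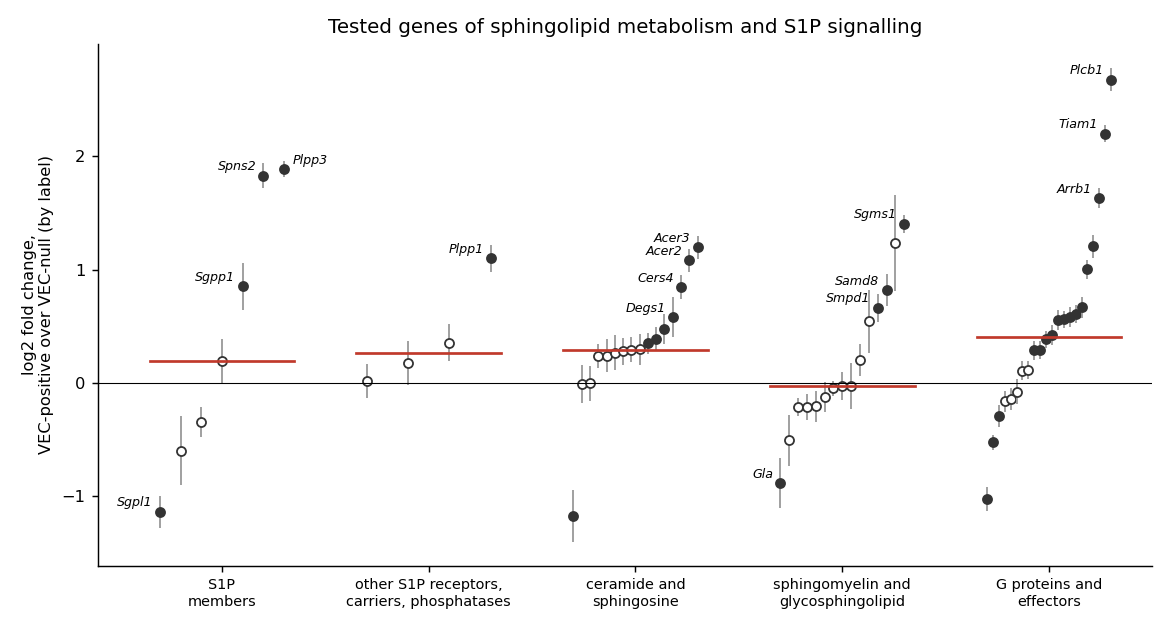
Log2 fold change, libraries labelled VEC-positive over those labelled VEC-null (vertical axis), of each tested gene of the S1P genes and 4 further lists, sorted within a list; whiskers are standard errors, genes past an adjusted p of 0.05 are filled and others open, and a red bar gives the median of each list. The medians run from -0.03 in sphingomyelin and glycosphingolipid turnover to 0.40 in G proteins and effectors.

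**Figure D4:**
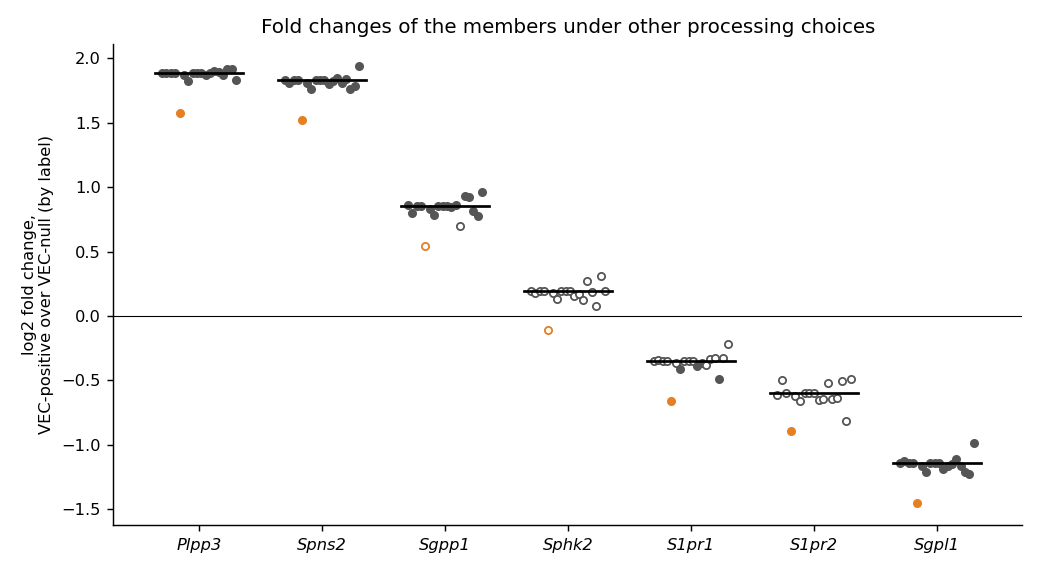
Log2 fold change, libraries labelled VEC-positive over those labelled VEC-null (vertical axis), of the 7 tested S1P genes as reported (black bar) and under up to 18 other processing choices (points; filled, adjusted p under 0.05; orange, libraries scaled to equal totals). *Plpp3* stays between 1.58 and 1.92, *Spns2* between 1.52 and 1.94 and *Sgpl1* between -1.45 and -0.99, all past the threshold, whereas *S1pr1* lies on either side of it.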

How the data were processed

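RNA of VEC-positive and VEC-null ECs was sequenced by the authors with a stranded total RNA kit in 3 libraries per label. The submitters' processing notes list mm10, TopHat2 2.1.1, Trim Galore and DESeq2 1.14. The sources used here do not say how reads were assigned to genes. The deposited signal values are gene counts scaled by the authors with a size factor for each library. Dividing by the step between values gave whole reads throughout, within 0.01 of a read. Symbols, coordinates and exon lengths came from GENCODE M21 (same build).

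Of 24080 genes, 14032 reached 10 normalized counts in 3 or more libraries and were tested on log2(value + 1) by limma 3.58.1 (R 4.3.3; mean-variance trend, two-sided, Benjamini-Hochberg adjustment). The alternatives were other pseudocounts, filters, scalings and models of the spread, a replicate block, omission of each library in turn, and tests of the recovered reads by DESeq2 1.42.0 and edgeR 4.0.16. Scripts were tested on simulated data. The members, lists and motifs were chosen with earlier results of these data known. Each further list contributed at most 4 called genes (mean 50 or more, by size of change) and at most 2 uncalled ones (by mean); lower members outside this rule are marked in the text, and 1 gene it draws is not reported here. Ratios of low counts carry exact binomial 95% intervals, which cover counting error only.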

Additional observations from a re-analysis of the deposited data

How the results depend on the processing

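*Plpp3*, *Spns2* and *Sgpl1* kept their direction and their call under all 18 alternatives, with log2 fold changes of 1.58 to 1.92, 1.52 to 1.94 and -1.45 to -0.99. *Sgpp1* lost its call in 2 of 18, *S1pr1* gained a call in 5 of 18 and *S1pr2* in 1 of 17, as given with each gene. Scaling to equal totals moved the median of all tested genes to -0.32; it gave 1566 genes higher and 4960 lower, against 2927 and 2304 as reported, and of the S1P genes 2 higher and 3 lower. Relative to that median *Sphk2*, at -0.11 there, was above it, as were *Aldh3a2* at -0.30, *Asah1* at -0.073, *Cers2* at -0.019, *Hexa* at -0.11, *Gnai2* at -0.21 and *Plcb3* at -0.20, each of which changed sign. The number of S1P genes lower was 2 with upper quartile scaling, edgeR or DESeq2, where 19.9%, 17.9% and 14.9% of all tested genes were lower. With a library left out the number was 1 to 2, where 11.3% to 23.9% of all tested genes were lower. *Aldh3a2*, near 0 as reported, was at -0.0052 with TMM scaling, -0.052 with upper quartile scaling, -0.026 with edgeR and -0.0072 with DESeq2, and between -0.11 and 0.15 with a library left out. With a library left out, 2111 to 3800 genes were higher and 1585 to 3359 lower. By the longest protein-coding transcript in place of merged exons, chosen after seeing the data, the ratio of *Spns2* to *Sgpl1* was 5.13 in libraries labelled VEC-positive and 0.65 in those labelled VEC-null, and the order of *Sphk2* and *Sgpp1* and of *S1pr2* and *Sphk1* in libraries labelled VEC-positive turned round.

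Deviations from the group means correlated at 0.08, -0.33 and -0.30 between libraries of equal number (1, 2 and 3). Between libraries of unequal number they correlated at -0.22 to 0.39. With 3 libraries per group, and VEC-null 3 unlike the others, these values cannot show whether libraries of equal number were handled together. With the replicate block 2400 genes were higher and 1744 lower, and of the genes named it ended the calls of *Degs1* (limma adjusted p = 0.0564) and *Arrb2* (0.0856) and no other. Depth limits *Sphk1*, with 19 and 5 reads, and *S1pr2*, with 46 and 68. Of 21 further genes drawn by the rule, 10 kept direction and call under every alternative.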
